A study of Mus musculus with 14 samples.

Results

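The heat shock proteins and chaperones described here are 10 genes, Hsp90ab1, Hsp90aa1, Cdc37, Hspa8, Hspa4, Hsph1, Dnaja1, Hspa5, Hspd1 and Hspe1. Their members were all probes that the array design names for one of these genes, 28 of 56605 probes. The levels came from 14 single-colour arrays of total RNA from CD4+ T-cells, 7 from Roquin san/+ mice and 7 from wild-type mice, each array labelled with a letter from A to G within its genotype. Roquin san/+ mice carry 1 copy of the sanroque allele of Roquin, an RNA-binding protein that restrains follicular helper T-cells. The labels give no age, sex or treatment, and each array was taken as 1 mouse, since only the protocol's wording ties arrays to mice. The only comparison the labels allow is between the genotypes. A second question was how far the chaperone genes moved together from array to array.

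Chaperones help newly made proteins to fold and keep damaged ones from clumping. The HSP90 machine holds kinases and receptors in an activatable state, with Cdc37 bringing the kinases to it. The HSP70 machine (Hspa8 in the cytosol, Hspa5 in the endoplasmic reticulum) binds unfolded chains, with J-proteins such as Dnaja1 loading it and Hspa4 and Hsph1 exchanging its nucleotide. Hspd1 and Hspe1 form the folding chamber of mitochondria. Many of these genes are induced by heat shock factor through repeated GAA blocks in their promoters, and T-cells raise several of them when they are activated and divide.

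Promoter sequences are shown because the results below turn on which of these genes moved together. RefSeq promoter windows of 300 bases (250 before and 50 after a gene's start, build GRCm38.p6) were matched for 7 of the 10 genes, in 11 windows. Hsp90ab1, Hsp90aa1 and Hspa8 were not matched. The 3-unit heat shock element was searched as GAANNTTCNNGAA on both strands, and the ER stress element, a motif of unfolded protein response genes, as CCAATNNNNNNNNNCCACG on both strands. Of 32851 promoter windows, 198 (0.603%) held the first motif and 39 (0.119%) the second. Among the chaperone genes the heat shock motif was found in 4 windows, of Hspd1, Hspe1 and Hsph1, and the ER stress motif in the window of Hspa5. The 4 windows are not separate finds. Those of Hspd1 and Hspe1 overlap by 285 bases and hold the same run, and both Hsph1 windows hold the same match. The Hsph1 match lies after the gene's start, 15 or 36 bases from it by the start used. Hspd1 and Hspe1 lie head to head on chromosome 1, and the 215 bases between an annotated start of each are the same DNA (Hspd1 has another annotated start at position 55088243). The capitals mark the matched bases. In the Hspd1–Hspe1 stretch they are 2 overlapping matches that form a run of 18 bases.
Hspd1–Hspe1, chr1:55087933-55088147, strand of Hspe1: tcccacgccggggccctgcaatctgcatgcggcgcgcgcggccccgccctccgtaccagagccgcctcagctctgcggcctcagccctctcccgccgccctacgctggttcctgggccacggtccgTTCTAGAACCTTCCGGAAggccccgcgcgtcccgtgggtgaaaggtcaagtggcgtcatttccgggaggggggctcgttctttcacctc
Hspa5, chr2:34771940-34772089, plus strand: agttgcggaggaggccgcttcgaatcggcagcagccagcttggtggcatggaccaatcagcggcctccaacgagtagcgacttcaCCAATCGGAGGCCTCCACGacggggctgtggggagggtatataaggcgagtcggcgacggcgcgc
Hsph1, chr5:149636280-149636309, minus strand: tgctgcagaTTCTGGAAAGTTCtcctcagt
A match describes the letters of the window and is not a measured binding site.

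Each probe is a 60-base oligonucleotide. The 4 printed here lie in coding sequence of the genes whose levels were most closely tied to each other, and they are further measurements of a gene beside the probe used for its level. Coordinates are those of the array files (mm9), and a range longer than 60 bases spans an exon junction.
Hsp90aa1, probe A_55_P2740832, chr12:111933318-111933377, minus strand: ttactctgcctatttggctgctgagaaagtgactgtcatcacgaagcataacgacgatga
Hspd1, probe A_55_P2846649, chr1:55135257-55135404, minus strand: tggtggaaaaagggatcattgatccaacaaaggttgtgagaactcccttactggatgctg
Hspe1, probe A_55_P1953063, chr1:55147620-55147946, plus strand: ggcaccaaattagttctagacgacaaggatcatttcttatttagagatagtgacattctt
Hsph1, probe A_55_P2003513, chr5:150420110-150420169, minus strand: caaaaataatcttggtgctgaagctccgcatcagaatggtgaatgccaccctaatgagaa

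Slide 1 held 7 of the arrays, 5 of them Roquin san/+, and slide 2 held 7, of which 2 were Roquin san/+. On replicate G of Roquin san/+ and replicate E of wild-type, the spots had been read 2 grid rows away from their probe names, and all values were computed after they were moved back. Roquin san/+ replicate C was the dimmest array, with a 75th percentile of the processed signal of 84.6 against 284 to 811 on the other 13. Roquin san/+ replicate F held RNA of other cells: of 22 B-cell, myeloid, NK and erythroid markers, 19 were highest on it, and the CD4+ T-cell markers (mean log2 level 0.59) were lowest on it. On the other 13 arrays the T-cell markers averaged 0.80 to 2.09. Across those 13 the B-cell markers averaged -6.24 to -1.63, highest on wild-type replicate B. The myeloid markers averaged -3.86 to -1.70, highest on Roquin san/+ replicate C. The erythroid markers averaged -7.87 to -1.04, highest on wild-type replicate C. All levels below are the log2 of the processed signal less the array's 75th percentile, so that 0 is the level of a fairly bright probe. They compare 1 probe between arrays, not probes with each other. In RNA from a bulk preparation, a change in the number of cells of a type and a change in RNA per cell cannot be told apart.

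None of the 10 chaperone genes passed limma's test between the genotypes. The count was 0 of 10 at an adjusted p below 0.05, where 0% of the 12866 probes tested were called, and also 0 of 10 at an unadjusted p below 0.05, which 4.06% of all probes reached. The 2 groups of 7 arrays overlapped for all 10 genes (0.0311% of all probes did not overlap). Of the 10 differences, 8 were below 0 (lower in Roquin san/+) and 2 above, with a median of -0.14, against a median of -0.00367 over 8678 tested genes, of which 49.4% were above 0. The gene's value is that of its tested probe with the highest mean. Of the 28 probes 22 were tested, and the other 6 had not been called well above background on all 7 arrays of either genotype. Some of these failed only through the calls of the displaced arrays, as given at the end. Every adjusted p among the 10 lay between 0.959 and 0.997. P-values measure the spread between these mice alone.

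**Figure D1:**
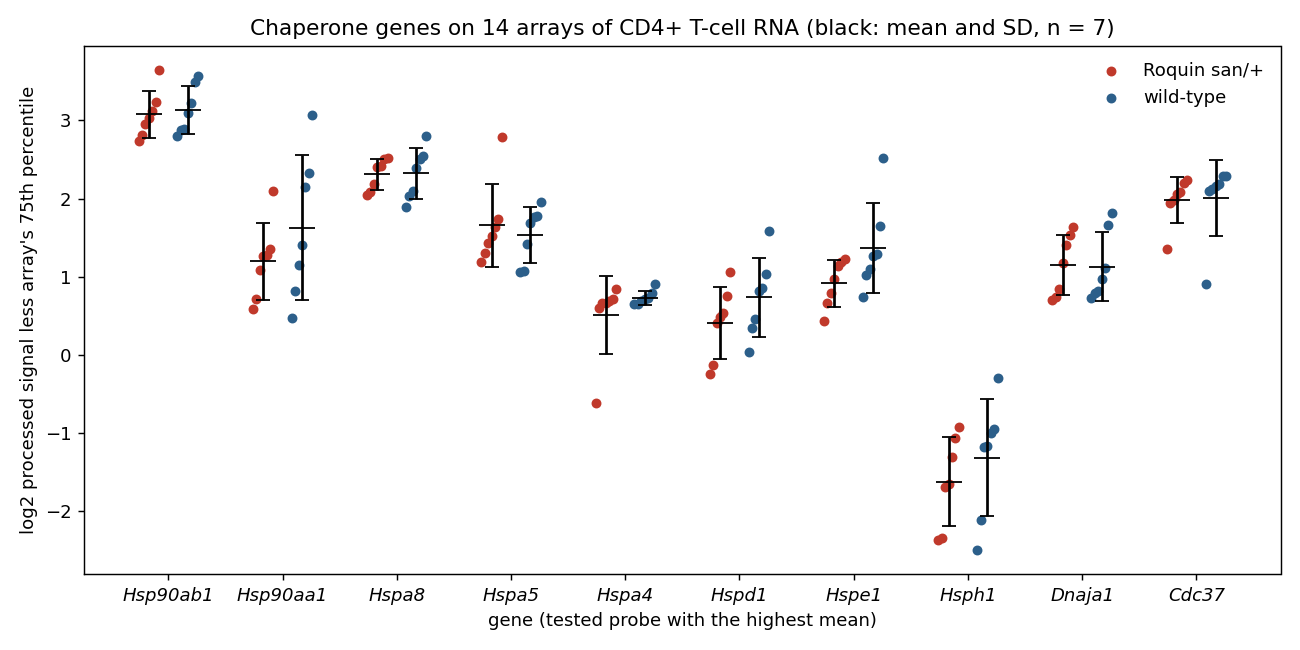
Log2 level of each chaperone gene (x axis) on each of the 14 arrays (y axis, log2 of the processed signal less the array's 75th percentile). Points are arrays, red for Roquin san/+ and blue for wild-type, and black bars give the mean and SD (n = 7 each). The genotypes overlap for every gene, and single arrays stand apart for Hspa5, Hspa4 and Cdc37.

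The differences of the HSP90 chaperones lay within the spread between mice. Hsp90aa1, the inducible cytosolic HSP90, had log2 levels from 0.58 to 2.09 in Roquin san/+ (median 1.27), and wild-type levels spanned 0.47 to 3.07 (median 1.41). It varied more than most genes, with a pooled SD of 0.74, above that of 87.9% of tested genes. Both the highest array (replicate C) and the lowest (replicate D) were wild-type. The means were 1.19 ± 0.49 for Roquin san/+ against 1.63 ± 0.93 for wild-type (SD, n = 7 each), a difference of -0.43 with a 95% interval of -1.21 to 0.34 (two-sided exact permutation p = 0.300). Leaving out wild-type replicate C brought the difference to -0.19. Within slides the sign was not kept: it was 0.16 on slide 1 and -0.58 on slide 2, and -0.20 with slide as a block.

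Hsp90ab1, the constitutive HSP90, ran from 2.73 to 3.65 (median 3.03) in Roquin san/+ and from 2.81 to 3.57 (median 3.09) in wild-type. Its single probe gave means of 3.08 ± 0.30 and 3.14 ± 0.31 (SD, n = 7 each). The difference was -0.06, with a 95% interval of -0.42 to 0.30, a fold between 0.748 and 1.23 (two-sided exact permutation p = 0.720). The slides disagreed, with 0.32 on slide 1 and -0.41 on slide 2, and the value was -0.04 with slide as a block. Cdc37, the kinase-specific helper of HSP90, ran from 1.36 to 2.24 (median 2.06) in Roquin san/+ and from 0.91 to 2.29 (median 2.16) in wild-type. In each genotype a single array lay below the rest, Roquin san/+ replicate C and wild-type replicate E, the dimmest array and a displaced one. The Cdc37 difference was -0.03, with a 95% interval of -0.48 to 0.42 (two-sided exact permutation p = 0.894), and -0.25 without both displaced arrays. Its other probe was well above background on all 6 well-placed arrays of each genotype but on neither displaced one.

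No gene of the cytosolic HSP70 system passed the test either. Hspa8, the constitutive HSP70 (Hsc70), ran from 2.05 to 2.52 (median 2.41) in Roquin san/+ and from 1.89 to 2.80 (median 2.39) in wild-type. Its means were 2.31 ± 0.20 and 2.32 ± 0.33 (SD, n = 7 each), a difference of -0.01 with a 95% interval of -0.34 to 0.32 (two-sided exact permutation p = 0.934). Hspa8 was among the steadier genes here, with an SD above that of only 27.1% of tested genes. Its 3 other probes gave -0.07, -0.11 and -0.24, and their values were much more spread out between arrays (SD from 0.49 to 0.99).

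Hsph1, the Hsp105 nucleotide exchange factor, had levels from -2.37 to -0.93 (median -1.65) in Roquin san/+ and from -2.50 to -0.30 (median -1.17) in wild-type. Its means were -1.62 ± 0.57 and -1.32 ± 0.75 (SD, n = 7 each). The difference was -0.31, with a 95% interval of -1.01 to 0.40 (two-sided exact permutation p = 0.399), and -0.45 with its other tested probe. As for Hsp90aa1, wild-type replicate C was the highest and wild-type replicate D the lowest of all arrays. Without replicate C the Hsph1 difference was -0.14. Dnaja1, a J-protein that delivers substrates to HSP70, ran from 0.70 to 1.63 (median 1.18) in Roquin san/+ and from 0.73 to 1.81 (median 0.97) in wild-type. Its difference was 0.02, with a 95% interval of -0.44 to 0.48 (two-sided exact permutation p = 0.934), and -0.14 with slide as a block.

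Hspa4, a second nucleotide exchange factor, was held most tightly in wild-type, from 0.65 to 0.90 with a median of 0.71. In Roquin san/+ it ran from -0.62 to 0.85 with a median of 0.66. The -0.62 was replicate C, and the other 6 arrays lay between 0.60 and 0.85, within or just below the wild-type range. The difference was -0.22, with a 95% interval of -0.63 to 0.18 (two-sided exact permutation p = 0.236), and -0.04 without replicate C. The 3 tested probes of Hspa4 disagreed. They gave -0.22, -0.08 and 0.19, and the correlations between them over the arrays ran from -0.57 to 0.14.

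In the endoplasmic reticulum, Hspa5 (BiP) is the main HSP70. Its levels ran from 1.18 to 2.79 (median 1.52) in Roquin san/+ and from 1.06 to 1.95 (median 1.68) in wild-type. Replicate C of Roquin san/+ was the highest of all arrays, and the next in its group was at 1.74. Means were 1.66 ± 0.53 and 1.53 ± 0.36 (SD, n = 7 each), a difference of 0.13 with a 95% interval of -0.37 to 0.62 (two-sided exact permutation p = 0.664). Without replicate C the difference was -0.06. The slides disagreed, with 0.70 on slide 1, which holds replicate C, and -0.35 on slide 2. Its other probes gave 0.06 and 0.04.

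The mitochondrial pair included the smallest p-value among the 10 genes, which belonged to Hspe1. Hspe1, the HSP10 lid of the folding chamber, ran from 0.43 to 1.22 (median 0.97) in Roquin san/+ and from 0.74 to 2.51 (median 1.26) in wild-type. Its means were 0.91 ± 0.30 and 1.37 ± 0.58 (SD, n = 7 each). The difference was -0.45, a fold of 0.731 with a 95% interval of 0.517 to 1.03 (two-sided exact permutation p = 0.0752, adjusted limma p = 0.959). Its 2 other probes gave -0.66 (two-sided exact permutation p = 0.0268, adjusted limma p = 0.959) and -1.003 (two-sided exact permutation p = 0.0647). The interval of the first of these ran from -1.22 to -0.10. The second, A_55_P1953063, passed the detection filter through the wild-type arrays alone and so gives no separate support. Roquin san/+ replicate C had a level of -5.38 there, while the rest of its group lay between -2.36 and -0.93, and without that array the difference was -0.45. Hspe1 was also below 0 on each slide, at -0.25 and -0.33, and with slide as a block, at -0.28. Wild-type replicate C was its highest array, and without it the difference was -0.26.

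Hspd1, the HSP60 barrel that Hspe1 caps, ran from -0.25 to 1.06 (median 0.49) in Roquin san/+ and from 0.03 to 1.59 (median 0.82) in wild-type. Its means were 0.41 ± 0.46 and 0.73 ± 0.51 (SD, n = 7 each). The difference was -0.33, with a 95% interval of -0.85 to 0.20 (two-sided exact permutation p = 0.235), and -0.27 with its other probe. It was -0.20 on slide 1, -0.35 on slide 2 and -0.27 with slide as a block. Hspd1 and Hspe1 shared their lowest array, Roquin san/+ replicate F, which carries RNA of other cells, and their highest, wild-type replicate C. Without replicate F the difference was -0.21 for Hspd1 and -0.37 for Hspe1. Without wild-type replicate C that of Hspd1 was -0.18.

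**Figure D2:**
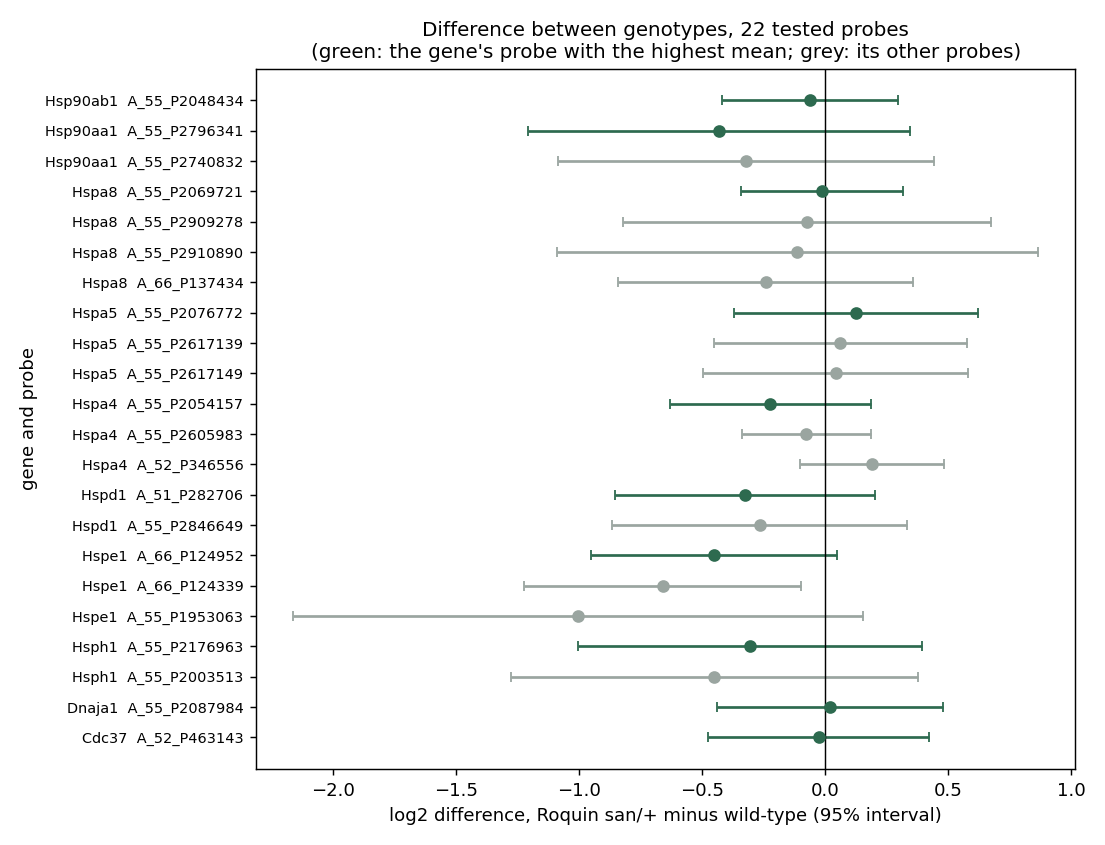
Difference between genotypes for the 22 tested chaperone probes (y axis: gene and probe; x axis: log2 difference, Roquin san/+ minus wild-type). Points are the limma estimates and bars their 95% intervals, green for the gene's probe with the highest mean and grey for its other probes. The interval of 1 Hspe1 probe, -1.22 to -0.10, does not reach 0, and its adjusted p was 0.959. The 3 Hspa4 probes lie on both sides of 0.

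Although none of them passed the test between genotypes, several of the chaperone genes rose and fell together from mouse to mouse. After each genotype's mean was removed, Pearson's r over the 14 arrays averaged 0.25 over the 45 pairs of genes, against 0.02 over all pairs of 8678 tested genes. It was at least 0.7 for 10 of the 45 pairs (22.2%, against 4.91% of all pairs). The 10 pairs were also those with an adjusted permutation p of r below 0.05, and 7 of them passed with Spearman's rho as well (100000 permutations within genotype, Benjamini-Hochberg over the 45 pairs). Of the 10 pairs, 9 joined genes among Hsp90aa1, Hspe1, Hspd1, Hsph1, Hspa8 and Hsp90ab1, and the tenth was Hsp90ab1 with Hspa5. Such joint movement was not particular to chaperones, since many other genes followed them more closely. By r with Hsp90aa1, the closest chaperone gene, Hspe1, ranked 265 among the tested genes. By r with Hspd1, Hsph1 ranked 29, Hspa8 230 and Hspe1 272. Hspa5 ranked 226 by r with Hsp90ab1.

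The closest pair was Hspd1 and Hsph1, a mitochondrial and a cytosolic chaperone (r = 0.93, adjusted permutation p = 0.00045; rho = 0.90, adjusted permutation p = 0.0018). Their r was 0.93 within slide 1 and 0.93 within slide 2, and 0.88 without the 2 arrays farthest from the median of Hspd1. Hsp90aa1 and Hspe1 followed (r = 0.85, adjusted permutation p = 0.00315; rho = 0.83, adjusted permutation p = 0.013). Hspa8 and Hspd1 had an r of 0.85 and a rho of 0.81, with the same adjusted permutation p values. For Hspd1 and Hspe1, which share the promoter stretch printed above, r was 0.83 and rho 0.81 (adjusted permutation p = 0.00315 and 0.013). Hsp90aa1 correlated with Hspd1 at 0.83 and with Hsph1 at 0.84, though for Hsph1 rho was 0.69 (adjusted permutation p = 0.0706).

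In the 10 pairs with an r of at least 0.7, r ran from 0.67 to 0.95 within slides and from 0.56 to 0.94 within genotypes. Without the 2 arrays farthest from the median of one gene of the pair, it ran from 0.53 to 0.89. These pairs were picked by r over the same arrays, which favours high values in each part, so the ranges give no separate support. Over all 45 pairs the mean r was 0.22 on slide 1 and 0.30 on slide 2. It was 0.096 with replicate and slide blocks. The tested probes of some genes moved together: r between the probes of a gene was 0.87 for Hsp90aa1, 0.85 for Hspd1 and 0.96 for Hsph1. For Hspe1 it was 0.90 between A_66_P124952 and A_66_P124339, and 0.32 and 0.50 between each of these and A_55_P1953063. For Hspa8 the probe used here correlated with the 3 others at only 0.33 to 0.40, while those 3 correlated with each other at 0.77 to 0.98. The values of Hspa8 therefore depend on the probe, and the part of the replicate E arrays in this was not tested.

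The other pairing was between HSP90 and the endoplasmic reticulum. Hsp90ab1 and Hspa5 correlated at 0.81 (rho = 0.81, adjusted permutation p = 0.00906 and 0.013), with 0.90 on slide 1 and 0.71 on slide 2. Hspa5 was only loosely tied to the mitochondrial genes, at 0.50 for Hspd1 and 0.25 for Hspe1. Dnaja1 (mean r of 0.07 with the other 9 genes), Cdc37 (-0.02) and Hspa4 (-0.26) were in no pair past the threshold. The r of -0.72 between Hspa5 and Hspa4 fell to -0.25 without Roquin san/+ replicate C and wild-type replicate B, and rho was -0.25, so it rested on those arrays.

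**Figure D3:**
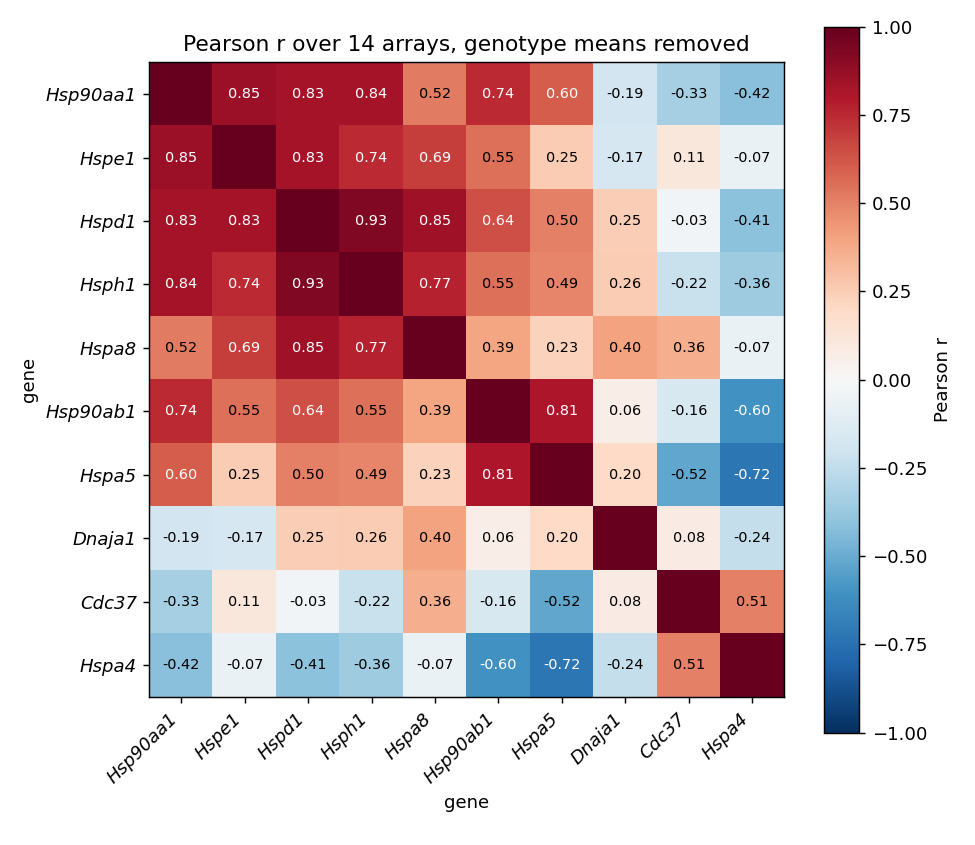
Pearson r between each pair of chaperone genes over the 14 arrays after removal of each genotype's mean (both axes: genes; colour and printed values: r). Hsp90aa1, Hspe1, Hspd1, Hsph1 and Hspa8 form a red block, with Hspd1 and Hsph1 at 0.93, and Hsp90ab1 joins Hspa5 at 0.81. Dnaja1, Cdc37 and Hspa4 stand outside it.

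Several of these genes moved with proliferation markers. The mean log2 level of Mki67, Top2a, Ccnb1, Cdk1, Mcm2 and Mcm5 was highest on wild-type replicate C (-0.46) and lowest on Roquin san/+ replicate A (-3.65). The list's range was -3.65 to -0.94 in Roquin san/+ and -3.44 to -0.46 in wild-type, and all 6 genes were well above background on every well-placed array. With this mean, Hspd1 had an r of 0.91 and a rho of 0.92 (adjusted permutation p = 0.001 and 0.0015). Hsph1 had an r of 0.86 and a rho of 0.90 (adjusted permutation p = 0.00337 and 0.0015). Hsp90aa1 had an r of 0.89 (adjusted permutation p = 0.00267), but its rho of 0.75 did not pass (adjusted permutation p = 0.0541). Without wild-type replicate C and Roquin san/+ replicate C, r was 0.83 for Hspd1, 0.82 for Hsph1 and 0.77 for Hsp90aa1. Within slides it lay between 0.83 and 0.96 for these 3 genes. With the same markers r was 0.81 for Hsp90ab1, 0.76 for Hspe1 and 0.71 for Hspa8, with adjusted permutation p values of 0.0122, 0.0218 and 0.0477 for r but 0.0855, 0.0584 and 0.0541 for rho. For Dnaja1 r was 0.06 and for Cdc37 -0.11. These 50 relations, of 10 genes with 5 marker lists, were chosen after the results above were known, and the adjustment covers all 50.

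Hspa5 moved with markers of plasma cells, the antibody-secreting cells whose endoplasmic reticulum is large. Its r with the proliferation markers was 0.68 (adjusted permutation p = 0.0664). With the mean of Jchain, Mzb1, Derl3, Prdm1 and Sdc1 its r was 0.85 and its rho 0.89 (adjusted permutation p = 0.00175 and 0.00167), and r was 0.93 on slide 1 and 0.81 on slide 2. Without wild-type replicate G and Roquin san/+ replicate C r was still 0.85. Hsp90ab1 had an r of 0.81 and a rho of 0.82 with the same list (adjusted permutation p = 0.0122 and 0.022), and 0.72 without those 2 arrays. The plasma cell list ran from -2.61 to -0.56 in Roquin san/+ and from -3.47 to -1.26 in wild-type, and was highest on Roquin san/+ replicate C. Prdm1 and Mzb1 are not particular to plasma cells. With the CD4+ T-cell markers, which were low on wild-type replicate C (0.80) and Roquin san/+ replicates C (0.93) and F (0.59), r was below 0 for Hsp90ab1 (-0.66), Hspa5 (-0.61) and Hsp90aa1 (-0.53). None of these passed (adjusted permutation p = 0.0677, 0.143 and 0.134). For rho they were -0.62, -0.67 and -0.49 (adjusted permutation p = 0.0904, 0.0584 and 0.184). Without Roquin san/+ replicate F and wild-type replicate C, r was -0.77, -0.86 and -0.71, and the same omission gave -0.73 for Hspd1 and 0.86 for Hspa4 (-0.36 and 0.42 over all 14). No chaperone gene passed with the B-cell or immediate early lists either. The part of dividing cells, of plasma cells or of the T-cell share in these levels was not tested.

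**Figure D4:**
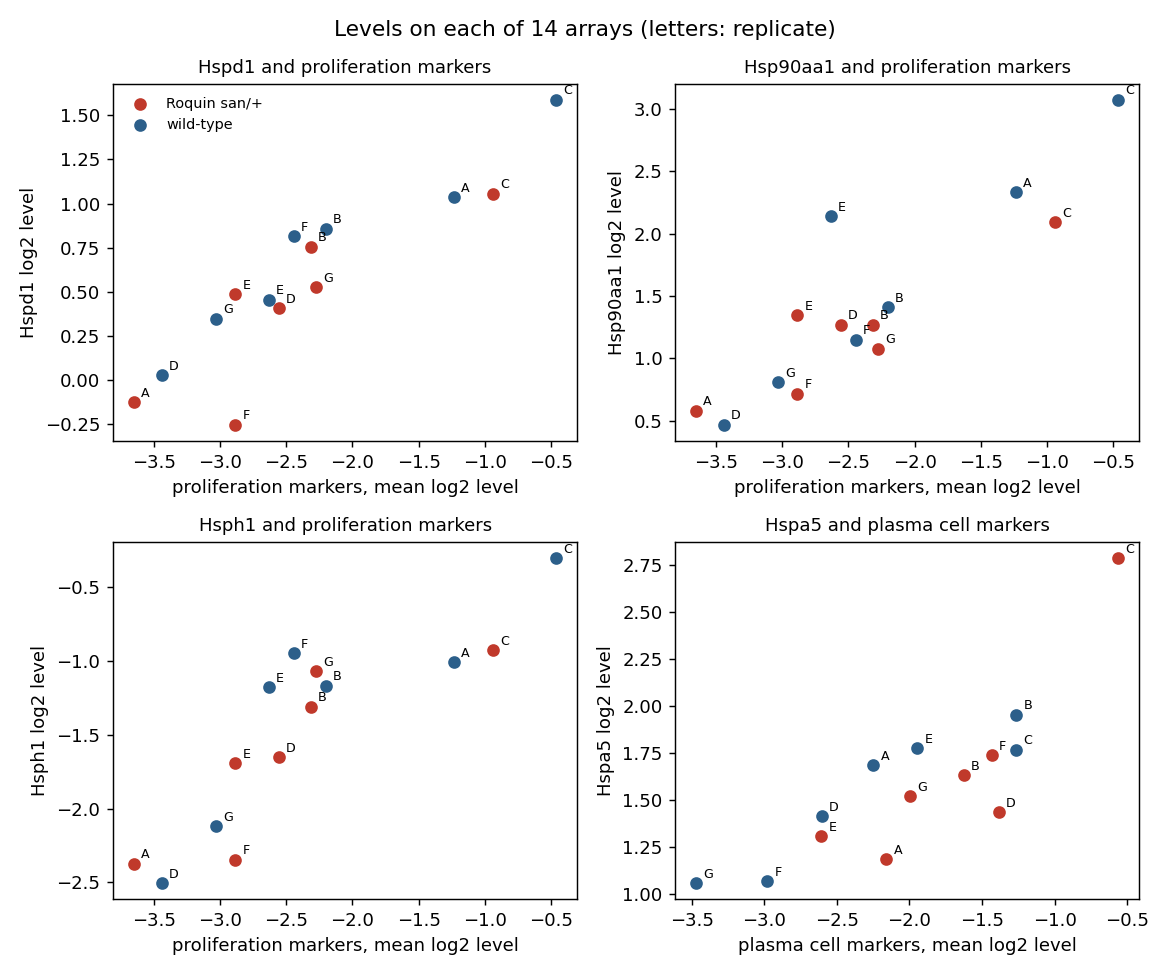
Log2 levels of Hspd1, Hsp90aa1 and Hsph1 (y axes) against the mean log2 level of 6 proliferation markers, and of Hspa5 against 5 plasma cell markers (x axes), on each of the 14 arrays. Red points are Roquin san/+, blue points wild-type, and letters are replicates. Hspd1 climbs with the proliferation markers in both genotypes (r = 0.91), with Roquin san/+ replicate F below the other arrays, and Hspa5 climbs with the plasma cell markers (r = 0.85).

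The tested genes outside the 10 that followed a chaperone gene most closely are given by r alone, over 14 arrays of which each gives both values. For Hsp90aa1 they included a transcript record without a symbol (0.97), Dnaaf2 (0.96), Rrm1 (0.96), the large subunit of the enzyme that makes DNA precursors, and Glrx5 (0.96), a mitochondrial iron-sulfur protein. Uhrf1 (0.94), which copies DNA methylation at replication, was among those of Hsp90ab1, with Mrps10 (0.95), a mitochondrial ribosomal protein, Gm45967 (0.94), Hs6st1 (0.94) and Josd1 (0.94). Hspd1 was followed by a transcript record without a symbol (0.99), Timm8a1 (0.98), a mitochondrial import chaperone, C1qtnf12 (0.97), Hacd1 (0.97) and Gdf3 (0.96). Hspa5 was followed by Tex9 (0.98), 4930427A07Rik (0.94), 3110062M04Rik (0.94), Fam20b (0.91) and Slpi (0.91), a secreted protease inhibitor. Without Roquin san/+ replicate C the r of Fam20b with Hspa5 was 0.78.

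Probes nearer the start of a transcript gave a further view of the arrays. In 7 of the 10 genes, the level of a more upstream probe less that of the most downstream one was taken on each array. Its mean over the 7 genes was lowest on Roquin san/+ replicate E, at -2.63, and next lowest on wild-type replicate E, a displaced array, at -2.25. The other 12 arrays ran from -1.99 to -1.77. Roquin san/+ replicate E was the lowest array for 4 of the 7 genes, Hspa8, Hspa4, Hspd1 and Hsph1. For Hspa8 its value was -4.69, against a median of -3.03. Wild-type replicate E was the lowest for Hsp90aa1, at -2.09 against a median of -0.95. For these 7 genes the values used above come from the downstream probe. The distance between the 2 probes differs by gene: they start at bases 557 and 791 for Hsp90aa1 and at 405 and 1812 for Hspa8. The Dnaja1 value comes from the most upstream of its probes, at base 1393. The part of the replicate E arrays in other results was not tested beyond leaving them out.

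In the wider chaperone network of 83 genes in 6 lists, 65 were tested and none was called at an adjusted p below 0.05 with limma, and 2 had an unadjusted p below 0.05. Of the 65, 20 were higher and 45 lower in Roquin san/+, a share of 30.8% higher against 49.4% of all tested genes. The lists overlap in some genes. The HSP90 co-chaperone list, which also holds the HSP90 chaperones Hsp90b1 and Trap1, had 3 higher and 9 lower of 12. Its median was -0.07. The steroid receptor immunophilins Fkbp4 (-0.36) and Fkbp5 (0.30) had the largest differences there, on opposite sides of 0. Without Roquin san/+ replicate C Fkbp4 was at -0.24, and without wild-type replicate C Fkbp5 was at 0.18. In the HSP70 system 2 were higher and 13 lower of 15 (median -0.11), with Hspa4l (0.46), a relative of Hspa4, and Bag3 (0.35), a partner in selective autophagy, the 2 higher ones. Without Roquin san/+ replicate C they were at 0.27 and 0.21. The stress-induced Hspa1a and Hspa1b were not tested, since neither passed the detection filter. In the list of heat shock factor and small heat shock proteins, 1 was higher and 3 lower of the 4 tested. These were Hspb11 (-0.36) and Hsf1 (0.16), the heat shock factor itself, at the ends, with Chordc1 and Dnajb1 between. The small heat shock proteins Hspb1, Hspb6, Hspb8 and Cryab of this list were not tested. Hspb11 was at -0.13 without Roquin san/+ replicate C, and Hsf1 at 0.10 without wild-type replicate C.

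The list of endoplasmic reticulum chaperones and unfolded protein response genes lay mostly on the other side. It also holds genes that are not chaperones, among them Xbp1, Atf4, Herpud1 and Sel1l. Of 17 tested, 13 were higher and 4 lower in Roquin san/+, with a median of 0.14. The largest were Xbp1 (0.58), a transcription factor of the unfolded protein response and of plasma cells, and Creld2 (0.44), an endoplasmic reticulum stress gene. Without Roquin san/+ replicate C they were at 0.41 and 0.23. The plasma cell markers, given above, had a median level of -1.62 in Roquin san/+ and -2.25 in wild-type, and their part in this list was not tested. Xbp1 correlated with Hspa5 over the arrays at 0.85 and Creld2 at 0.89. Of the 9 mitochondrial genes 8 were lower (median -0.20), with Hspa9, the mitochondrial HSP70, at -0.30 and the protease subunit Clpp at -0.28. Of 13 tested genes of the cytosolic chaperonin CCT and its partner prefoldin, 12 were lower (median -0.21), with Cct3 (-0.55) and the prefoldin subunit Vbp1 (-0.38) the lowest. Both rested on Roquin san/+ replicate C, at levels of -4.39 and -4.28 there, and without it they were at -0.16 and -0.13. Without that array 14 of the 17 genes of the endoplasmic reticulum list were higher (median 0.10). Of the 13 chaperonin and prefoldin genes 11 were then lower (median -0.16). The share of all 65 that was higher was then 35.4%, against 52.5% of all tested genes. Genes of a list vary together from array to array, so these counts are descriptions and no test was made of a list.

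The lists also differed in how closely they followed single chaperone genes across arrays. The median r with Hspd1 was 0.60 for the HSP90 co-chaperone list, 0.58 for the mitochondrial list and 0.46 for the chaperonin. It was -0.13 over all tested genes. With Hsp90aa1 the median r was 0.57 for the HSP90 co-chaperone list, Hsp90b1 and Trap1 included, and 0.17 for the chaperonin. With Hspa5 the endoplasmic reticulum list had the highest median, 0.43, and the chaperonin a median of -0.17. The heat shock factor list had a median r of -0.27 with Hsp90aa1.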

How the data were processed

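The authors deposited the scanner output of each array as spot intensity values (Agilent Feature Extraction 10.5.1.1, per the submitters' processing notes), with a background-subtracted processed signal, and a table of log2 values whose method is not given in the sources used here. The paper describes other arrays, so nothing was taken from it. Each array was set against the median array over 169 shifts of up to 6 rows or columns. Replicate G of Roquin san/+ and replicate E of wild-type were moved by 2 rows (r with the median array 0.01 before, 0.91 and 0.89 after). Their detection calls, made on misplaced controls, could not be repaired, and outlier flags were not used on them. Only 22.0% and 19.5% of probes were called well above background there, against 53.4% to 75.5% on the other arrays. Precision is limited by the number of arrays. Control spots were left out and spots of a probe averaged.

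From log2 signals each array's 75th percentile was subtracted, taken over the 10320 probes called above background by every array. The 12866 probes that all 7 arrays of a genotype called well above background, in either genotype, were fitted with limma 3.58.1 (lmFit, eBayes) in R 4.3.3, with Benjamini-Hochberg adjustment and a threshold of 0.05. Of these, 1909 passed through Roquin san/+ alone and 637 through wild-type alone. Exact permutation tests used all 3432 arrangements (smallest p 5.83e-04). The fit was tested on simulated data. No column of sample values was left unmapped (0).

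The genes, lists and tests were chosen with earlier results of these data known. Named genes were all 10 chaperones, the 2 largest differences of each wider list, and the 5 tested genes with the highest r to each of 4 chaperones, of which 1 is not reported here. Of 15 transcript records behind the chaperone probes, 11 matched RefSeq, and the file's gene names were kept. The labels do not say whether same-lettered arrays of the 2 genotypes belong together. The r between same-lettered arrays' deviations ran from -0.47 to 0.41. It was not set against differently lettered arrays, so it cannot decide this. Alternatives covered background correction (normexp, offset 50), normalization, filter, slide, replicate letter, the deposited log2 table, probe names as deposited and leaving out arrays.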

Additional observations from a re-analysis of the deposited data

Results flagged for a closer look

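In 20 groups of 7 arrays (10 genes in 2 genotypes), 4 had a sample far from the others by Dixon's test, which chance gives for about 1 in 20 groups. Roquin san/+ replicate C was the highest of its group for Hspa5 (2.79, others 1.18 to 1.74), the lowest for Hspa4 (-0.62, others 0.60 to 0.85) and the lowest for Cdc37 (1.36, others 1.95 to 2.24). This was the dimmest array, with a 75th percentile of processed signal of 84.6. Wild-type replicate E, one of the displaced arrays, was the lowest of its group for Cdc37 (0.91, others 2.09 to 2.29). The causes were not tested.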

How the results depend on the processing

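The count of called probes, of called chaperone genes and of called genes in the wider lists was 0 under every alternative run with limma. Between 59 and 2080 probes had an unadjusted p below 0.05. With the deposited probe names only 1 chaperone gene and 22 list genes were tested, so the 0 there says little. The lists held 65 tested genes even with no filter or with detection over the 12 well-placed arrays. List genes untested in the main fit, such as Hspa1a and Hspa1b, therefore entered no alternative, and the counts do not cover them. None of the chaperone genes described here reached an adjusted p below 0.05 (lowest 0.650, for Hspe1). Settings without Roquin san/+ replicates C, E and F and both displaced arrays, with each gene's second probe, and without single arrays for the wider lists and further probes, were chosen after seeing the data. The mean r of the 45 pairs, taken as changed when it moved by over 0.1, was 0.25. It was 0.36 with the 75th percentile over all probes, 0.44 without the 5 arrays that stand apart, 0.38 with second probes, and 0.99 with the deposited probe names, by which the 2 displaced arrays carry values of other probes for all genes at once. Dropping each array in turn gave 0.22 to 0.31.

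With the replicate block the mean r was 0.17 and each difference equalled the one reported, and with a slide block added the mean r was 0.096. Whether the letters pair arrays is not known, so the fits with a replicate block are descriptions. With both blocks the sign turned for Hspa8 (0.17), Hspa4 (0.011), Dnaja1 (-0.21) and Cdc37 (0.17), and Hsph1 came to -0.0017, Hspe1 to -0.14, Hspd1 to -0.12 and Hsp90aa1 to -0.039. The other changes of sign were as follows. On slide 1 alone Hsp90ab1 was 0.32, Hsp90aa1 0.16, Hspa8 4.27e-04 and Dnaja1 -0.043, and on slide 2 alone Hspa5 was -0.35, Hspa4 0.0054, Dnaja1 -0.26 and Cdc37 0.10. With the authors' log2 table after the move Hsp90ab1 was 0.052, Hspa8 0.084 and Cdc37 0.048, and with quantile normalization Hspa8 was 0.040 and Cdc37 0.015. The 75th percentile over all probes moved the median difference of all tested probes to -0.17, and there Hspa5 was -0.047 and Dnaja1 -0.15. Hspa5 was -0.082 without the 5 arrays that stand apart, a setting in which Hspa4 had a difference of -0.10 (two-sided exact permutation p = 0.0119, adjusted limma p = 0.881). Dnaja1 was -0.12 once both displaced arrays were dropped, -0.043 with normexp, -0.035 where detection was counted over the 12 well-placed arrays, -0.18 under the deposited names and -0.14 in the fit with a slide block.

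Dropping each array in turn put the differences at -0.16 to 0.010 for Hsp90ab1, -0.63 to -0.19 for Hsp90aa1, -0.091 to 0.066 for Hspa8, -0.062 to 0.20 for Hspa5, -0.28 to -0.035 for Hspa4, -0.44 to -0.18 for Hspd1, -0.56 to -0.26 for Hspe1, -0.50 to -0.14 for Hsph1, -0.062 to 0.13 for Dnaja1 and -0.21 to 0.079 for Cdc37. The sign turned without wild-type replicate C for Hsp90ab1 and without Roquin san/+ replicate C for Hspa5, and in 5 to 7 of the 14 fits for Hspa8, Dnaja1 and Cdc37. The causes were not tested. Of the 6 untested probes, those of Cdc37 and Hspa4 were well above background on all 6 well-placed arrays of each genotype. Both untested Dnaja1 probes were so on all 6 well-placed wild-type arrays. The unrepaired detection calls of the displaced arrays limit these probes and any other gene those arrays left undetected. Signal over background limits the untested probes of Hsp90aa1 (1 and 0 well-placed arrays in Roquin san/+ and wild-type) and Hsph1 (2 and 4).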
